A study of Mus musculus with 16 samples.

Results

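White adipose tissue of mice without a gene deletion was compared between a high and a low fat diet, across all genes of a microarray. The comparison rests on 8 of the 16 arrays of the series: 4 on the low fat diet and 4 on the high fat diet, taken by their labels. All mice were of the C57BL6/J background, and the wild-type mice carried no Cre transgene. Feeding began at the age of 4 weeks and lasted 8 weeks, so that the mice were 12 weeks old at dissection. The other 8 arrays, also 4 on each diet, are of mice with Sirt1 deleted by a Cre transgene driven by the fatty acid binding protein 4 promoter (FABP4-Cre). They enter here only through the shared estimate of the spread and through the test of whether the diet effect differed between genotypes. The fat depot, the composition of the diets, the sex of the mice and the hour of dissection were not stated in the labels. The labels also do not say whether each array is a separate mouse, so that a p-value reflects only how far these samples spread, which may be technical.

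White fat stores triglyceride in adipocytes, which make fatty acids from glucose, take them up from lipoproteins and release them by lipolysis, and which secrete hormones such as leptin and adiponectin. Around the adipocytes lie vessels, fibroblast-like progenitors, a collagen-rich matrix and immune cells, mostly macrophages. When mice eat a fat-rich diet the adipocytes enlarge, progenitors can form new ones, and macrophages that take up lipid gather around dying adipocytes.

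Values are log2 expression, with 1 probe set for each gene. A gene was tested if it reached a log2 value of 4, near the low end of the scale, in at least 4 of the 16 arrays, which kept 12078 of 18193 genes. Changes are the mean of the 4 high fat arrays minus the mean of the 4 low fat arrays on the log2 scale, with the standard error (SE) and the Benjamini-Hochberg adjusted p over the 12078 genes from limma, which was called below 0.05. Arrays of the same diet correlated over all probe sets with r of 0.987 to 0.995, and arrays of different diets with r of 0.969 to 0.986. Their number, 4 in each group, limits the precision. The tissue was checked against its markers. 17 adipocyte genes were all detected, and Adipoq, the adiponectin gene, stood at 13.50, 13.68, 13.54 and 13.53 on the low fat diet and 13.43, 13.55, 13.63 and 13.51 on the high fat diet.

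Some arrays carried transcripts of other tissues. Tnnt3, a troponin of fast skeletal muscle, was at 10.52 and 9.48 in low fat replicates 3 and 4 and at 8.86 in high fat replicate 3, with high fat replicate 4 next at 7.95 and the other 4 wild-type arrays between 3.40 and 6.65. The mean log2 value of 18 skeletal muscle markers ran from 4.93 to 8.36 in the low fat arrays and from 4.66 to 7.50 in the high fat arrays, and 1 of them rose and 1 fell. High fat replicate 4 carried epithelial transcripts: Upk2, a uroplakin of the urinary tract lining, was at 10.64 there and at most 3.81 in the other 7 arrays. Krt14 and Epcam, the other defining epithelial markers, were at 2.61, 2.62, 2.78 and 3.17 and at 3.64, 3.25, 2.70 and 3.30 on the low fat diet, and at 3.07, 2.50, 3.09 and 3.03 and 3.28, 3.40, 3.35 and 6.75 on the high fat diet. The mean of 5 liver transcripts was 6.38 in low fat replicate 3 and 3.05 to 4.95 in the other 7 arrays. Among them, the transthyretin gene Ttr was at 1.63, 1.91, 6.52 and 3.69 on the low fat diet and 2.22, 3.78, 1.95 and 9.57 on the high fat diet, so that high fat replicate 4 was higher still for this gene. These 2 sets were chosen after seeing the data. Counts for each gene group were computed again without the 5 arrays with muscle transcripts (Tnnt3 at 8 or more, 2 of them knockout) and without low fat replicate 3 and high fat replicate 4. Of the 203 called genes named here, 21 lost their call in the first of these: Abhd5, Acadl, Acot2, Aqp7, Bcl6, Cav1, Cavin1, Cd74, Cdkn1a, Cpt1a, Cxcl12, Cyp2e1, Dbp, Dgat2, Fzd5, Gys1, Ighm, Klf6, Lipe, Pck1 and Tef. In the second, 7 of these 21 did: Aqp7, Cav1, Cpt1a, Cxcl12, Klf6, Lipe and Tef. Single calls in a list can also be lost: the 1 rise in the peroxisome list and the 1 fall in each of the TGF-beta and inflammasome lists were not called without low fat replicate 3 or without high fat replicate 4, among other settings.

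Of the genes tested, 4304 (35.6%) were called, 2472 higher (20.5%) and 1832 lower (15.2%) on the high fat diet, and the median change over all 12078 was 0.04. Rises made up 57.4% of the calls, but with each array centred on its median 2050 genes were called higher and 2552 lower, and quantile normalization of the genes tested gave 2062 and 2539. Quantile normalization of all probe sets kept the excess of rises, with 2514 higher and 1870 lower. Directions of small changes therefore depend on the scaling. Without the 5 arrays with muscle transcripts 2567 genes were called, and without low fat replicate 3 and high fat replicate 4 the count was 3414. The changes were often large: 893 genes rose and 364 fell at least 2-fold, while 1407 calls were of less than 1.5-fold. In 30.8% of the genes tested all 4 arrays of 1 diet lay above all 4 of the other. Of the 4304 calls, 3344 had groups apart in this way. Many genes named below were chosen by size or by a small p, which favours groups that do not overlap. In bulk tissue, fewer cells of a type and less RNA of a gene in each cell cannot be told apart.

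The shares of each gene group that rose and fell are shown for 51 gene lists, ordered by their median change, beside the shares over all genes.

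**Figure D1:**
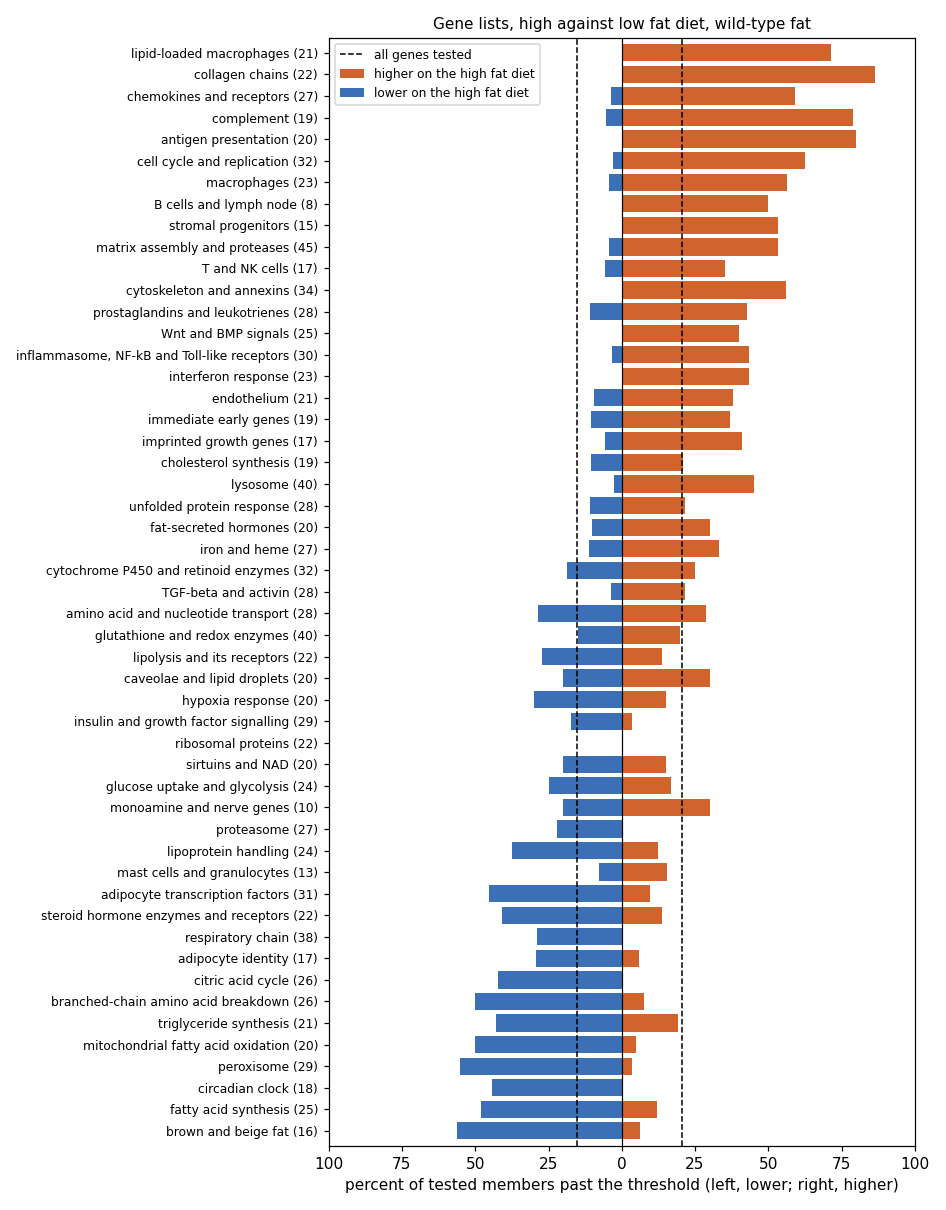
Percent of the tested members of each gene list (number tested in parentheses) called higher (right, orange) or lower (left, blue) in wild-type fat with high fat feeding, adjusted p below 0.05. Dashed lines mark the shares over all genes tested, 20.5% up and 15.2% down. Lists are ordered by median change, from brown and beige fat at the bottom to lipid-loaded macrophages at the top, and the collagen list has the longest bar to the right, with 19 of 22.

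Promoter sequences are shown here for the clock and the cell cycle, 2 groups whose called members moved almost all one way. They are RefSeq windows of mouse build GRCm38.p6, from 250 bases before to 50 after a gene's start. In the clock genes Per1 (chr11:69098699-69098998, plus strand) and Ciart (chr3:95882179-95882478, minus strand) the capitals mark CACGTG, the E-box that the clock activators CLOCK and BMAL1 are known to bind.
Per1: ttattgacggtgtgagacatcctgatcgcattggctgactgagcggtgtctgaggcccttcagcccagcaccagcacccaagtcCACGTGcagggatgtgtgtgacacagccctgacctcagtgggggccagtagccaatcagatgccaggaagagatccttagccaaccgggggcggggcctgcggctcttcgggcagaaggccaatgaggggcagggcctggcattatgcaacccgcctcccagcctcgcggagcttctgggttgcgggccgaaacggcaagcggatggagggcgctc
Ciart: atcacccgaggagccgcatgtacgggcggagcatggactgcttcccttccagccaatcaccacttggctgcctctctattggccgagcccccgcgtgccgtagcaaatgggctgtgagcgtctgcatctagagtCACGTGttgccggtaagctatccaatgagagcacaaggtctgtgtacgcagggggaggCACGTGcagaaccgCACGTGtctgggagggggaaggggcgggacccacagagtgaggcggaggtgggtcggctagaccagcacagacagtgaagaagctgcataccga
In the mitotic genes Ccnb2 (chr9:70421505-70421804, minus strand) and Cdk1 (chr10:69352863-69353162, minus strand) the capitals mark TTTGAA, the core of the cell cycle homology region of mitotic promoters, and CCAAT, on either strand.
Ccnb2: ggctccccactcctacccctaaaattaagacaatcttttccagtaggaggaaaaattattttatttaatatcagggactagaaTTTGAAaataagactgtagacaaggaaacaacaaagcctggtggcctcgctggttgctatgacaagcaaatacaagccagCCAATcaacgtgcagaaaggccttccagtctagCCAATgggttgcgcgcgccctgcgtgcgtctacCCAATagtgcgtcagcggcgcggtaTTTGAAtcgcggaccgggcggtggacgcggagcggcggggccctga
Cdk1: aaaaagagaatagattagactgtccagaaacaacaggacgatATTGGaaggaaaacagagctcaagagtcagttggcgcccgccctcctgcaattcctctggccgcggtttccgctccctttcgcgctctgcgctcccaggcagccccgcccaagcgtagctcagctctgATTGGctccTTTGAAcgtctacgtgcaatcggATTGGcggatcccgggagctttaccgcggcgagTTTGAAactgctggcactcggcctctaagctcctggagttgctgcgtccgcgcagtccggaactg
The Per1 window held 1 E-box and the Ciart window 3, and each of the mitotic windows held 2 copies of TTTGAA and 3 of CCAAT. Searched on both strands, CACGTG was in the windows of 3 of the 8 clock genes that fell (Per1, Tef and Ciart; Tef was not called without any 1 of 5 arrays) and in those of 8.09% of all 27025 genes in the table. TTTGAA was in the windows of 7 of the 18 called cell cycle genes with a window, against 20.2% of all genes, and CCAAT in 13 of 18, against 41.1%. CCAAT was also in the windows of 6 of the 8 clock genes. Among motifs not marked, the E2F site was in 5 of the 18 cell cycle windows, against 0.929% of all genes. These were of Cdk1, whose window is printed, Mcm3, Mcm5, Mcm6 and Mcm7, the last of which fell. The D-box TTATGTAA was in 0 of the 8 clock windows, against 1.11% of all genes. Per1 has 2 windows in the table, of which the one with the E-box is shown. No capitals of different motifs overlap in the windows printed. The 3 motifs were picked for display from 13 searched, with these values in view. A match describes the letters of a window, not a site in use.

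The largest changes were examined first. The 12 largest rises and 12 largest falls, ranked by change with values under 4 set to 4, are plotted by array. They were taken among called genes whose groups did not overlap.

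**Figure D2:**
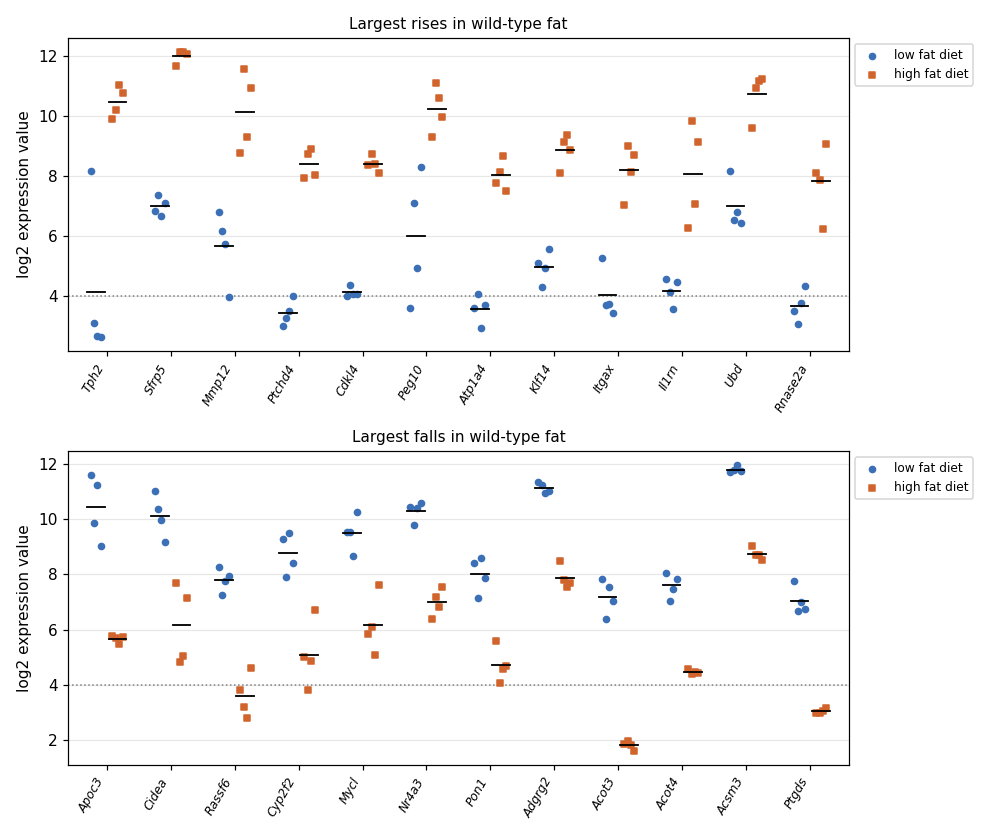
Log2 values of the 12 genes with the largest rise (top) and the 12 with the largest fall (bottom) in wild-type fat with high fat feeding, among called genes whose groups did not overlap. Each point is an array, horizontal bars are means of 4, and the dotted line marks the minimum of 4; Acot3 and Ptgds lie under it in all 4 high fat arrays.

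Sfrp5, a secreted inhibitor of Wnt signals made by adipocytes, was at 6.83, 7.37, 6.68 and 7.10 on the low fat diet and 11.68, 12.14, 12.14 and 12.07 on the high fat diet. The groups lay over 4 log2 units apart, far more than either spread. Klf14, an imprinted Krüppel-like transcription factor of fat, was at 5.10, 4.29, 4.94 and 5.57 on the low fat diet and 8.12, 9.14, 9.39 and 8.87 on the high fat diet, a rise of 3.91 (SE 0.28, adjusted p = 2.46e-07). Ptchd4, a patched-domain membrane protein, was at 3.00, 3.26, 3.50 and 3.99 on the low fat diet and 7.94, 8.75, 8.89 and 8.05 on the high fat diet; since its low fat values were all under 4, the rise with values set to 4 was 4.40. In these genes every high fat array was higher than every low fat array, as their choice required. Tfpi2, an inhibitor of serine proteases in the matrix, was at 6.07, 6.44, 6.07 and 5.93 on the low fat diet and 9.33, 9.08, 9.30 and 8.91 on the high fat diet and rose by 3.03 (SE 0.17, adjusted p = 1.13e-08). Cdkl4, a kinase related to the cyclin-dependent kinases, was at 4.00, 4.37, 4.06 and 4.05 on the low fat diet and 8.36, 8.73, 8.42 and 8.10 on the high fat diet. Tfpi2 and Cdkl4 were both among the 6 rises with the smallest error for their size. The other probe set of Cdkl4 differed by 0.035 and was not called.

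Other large rises were more uneven among arrays. Tph2, the neuronal tryptophan hydroxylase of serotonin synthesis, was at 8.19, 3.10, 2.66 and 2.63 on the low fat diet and 9.91, 10.19, 11.03 and 10.78 on the high fat diet. Low fat replicate 1 was thus far above the other low fat arrays, yet below all high fat arrays. Peg10, an imprinted gene derived from a retrotransposon, was at 3.60, 7.11, 4.93 and 8.30 on the low fat diet and 9.30, 11.12, 10.60 and 9.97 on the high fat diet and rose by 4.26 (SE 0.81, adjusted p = 0.000783). Ubd, an interferon- and TNF-induced ubiquitin-like protein, was at 8.18, 6.54, 6.82 and 6.44 on the low fat diet and 9.60, 10.96, 11.19 and 11.25 on the high fat diet, and rose by 3.76 (SE 0.48, adjusted p = 2.97e-05). Rnase2a, an eosinophil-type ribonuclease, was at 3.51, 3.07, 3.76 and 4.34 on the low fat diet and 8.11, 7.86, 6.25 and 9.08 on the high fat diet. Atp1a4, a sodium pump subunit, was at 3.59, 4.08, 2.93 and 3.71 on the low fat diet and 7.79, 8.14, 8.67 and 7.52 on the high fat diet. In all of these the 4 high fat arrays were above the 4 low fat arrays, as their choice required.

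Among the falls, Apoc3, an apolipoprotein that slows the clearance of triglyceride-rich particles, was at 11.59, 9.85, 11.24 and 9.04 on the low fat diet and 5.76, 5.68, 5.49 and 5.74 on the high fat diet. The high fat arrays were within 0.3 of each other, while low fat replicates 2 and 4 were lower than 1 and 3. Pon1, a lactone-cleaving enzyme carried on HDL, was at 8.40, 7.16, 8.60 and 7.88 on the low fat diet and 5.60, 4.07, 4.58 and 4.68 on the high fat diet and fell by 3.28 (SE 0.40, adjusted p = 1.84e-05). Acsm3, a mitochondrial medium-chain acyl-CoA synthetase, was at 11.70, 11.77, 11.94 and 11.75 on the low fat diet and 9.02, 8.70, 8.71 and 8.52 on the high fat diet. It fell by 3.05 (SE 0.27, adjusted p = 1.6e-06), with no overlap, as its choice required. Adgrg2, an adhesion G protein-coupled receptor, fell by 3.26 (SE 0.24, adjusted p = 3.06e-07) from 10.95 or more to 8.50 or less. Rassf6, a RAS-association domain protein, and Cyp2f2, a cytochrome P450, had changes of -4.19 (SE 0.40, adjusted p = 2.47e-06) and -3.69 (SE 0.63, adjusted p = 0.000366). St3gal6, a sialyltransferase, fell by 2.14 (SE 0.17, adjusted p = 4.97e-07).

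Hormones and other secreted products of fat changed in both directions. Of 20 tested, 6 rose and 2 fell, 4 with arrays centred. Lep, the leptin gene, was at 11.66, 11.74, 11.15 and 12.05 on the low fat diet and 12.89, 13.22, 13.30 and 13.16 on the high fat diet and rose by 1.49 (SE 0.17, adjusted p = 8.9e-06), with the groups apart. Inhbb, the subunit of activin B, was at 8.64, 9.01, 8.92 and 9.71 on the low fat diet and 10.64, 10.50, 10.91 and 10.15 on the high fat diet, a rise of 1.48 (SE 0.32, adjusted p = 0.00228). Metrnl, a secreted meteorin-like factor, rose by 1.23 (SE 0.23, adjusted p = 0.000669). Agt, the angiotensinogen gene, was at 10.65, 9.54, 10.78 and 10.38 on the low fat diet and 8.17, 8.95, 8.94 and 8.39 on the high fat diet and fell by 1.73 (SE 0.29, adjusted p = 0.000288). Nrg4, a growth factor secreted by fat, fell by 1.12 (SE 0.17, adjusted p = 0.000146), from 11.75 or more to 10.95 or less. Adipoq did not differ between diets beyond its spread: the difference was -0.03, with a 95% confidence interval of -0.23 to 0.17. Npy, a peptide that rose by 1.41, lay near the low end of the scale, and with values set to 4 its rise was 0.45 and was not called.

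Adipocyte markers fell in part. Of 17 tested adipocyte genes 1 rose and 5 fell, with a median change of -0.27, and 3 fell without the arrays with muscle transcripts. Fabp4, the fatty acid carrier of adipocytes, was at 13.69, 13.88, 13.70 and 13.75 on the low fat diet and 13.88, 13.68, 13.81 and 13.73 on the high fat diet, with overlapping groups and an interval for the difference of -0.16 to 0.20. Its 3 other probe sets differed by -0.45 to -0.01, and 1 of them was called lower in a fit over all probe sets with a single symbol. Pparg, the nuclear receptor that makes and maintains adipocytes, was at 12.50, 11.95, 12.29 and 12.35 on the low fat diet and 11.15, 11.41, 11.39 and 11.22 on the high fat diet. It fell by 0.98 (SE 0.15, adjusted p = 0.000155), with all 4 high fat arrays lower. Thrsp, a lipogenic nuclear protein, fell by 0.99 (SE 0.19, adjusted p = 0.000729) and Pck1, the enzyme of glyceroneogenesis, fell by 0.47 (SE 0.11, adjusted p = 0.0032). The single rise was of Aqp7, the glycerol channel, by 0.71 (SE 0.26, adjusted p = 0.0409), in which the groups overlapped; it was not called with arrays centred, with the wild-type arrays alone or without low fat replicate 1 or 3 or high fat replicate 1, 2 or 3.

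Many transcription factors of the adipocyte fell. Of 31 tested, 14 fell and 3 rose, with a median of -0.21. Without the arrays with muscle transcripts 8 fell, and without low fat replicate 3 and high fat replicate 4 9. The count of falls was 9 without low fat replicate 1 and 9 without high fat replicate 2, and 1 gene rose without the arrays with muscle transcripts. Ppara, the receptor that switches on fatty acid oxidation genes, was at 7.39, 6.29, 6.93 and 6.64 on the low fat diet and 4.86, 3.94, 4.34 and 4.88 on the high fat diet. Mycl, a member of the MYC family, was at 9.54, 9.55, 8.68 and 10.26 on the low fat diet and 5.84, 6.08, 5.07 and 7.63 on the high fat diet, and fell by 3.36 (SE 0.45, adjusted p = 4.73e-05). Klf15, which is induced by glucocorticoids, was at 11.40, 10.69, 11.44 and 10.94 on the low fat diet and 9.81, 10.01, 9.33 and 9.34 on the high fat diet. Mlxipl, the glucose-sensing factor ChREBP, was at 10.89, 10.04, 10.60 and 10.13 on the low fat diet and 8.85, 8.81, 8.93 and 8.87 on the high fat diet. In all 4 genes the diets did not overlap. Cebpa, a partner of Pparg in adipocyte formation, differed by -0.14 (adjusted p = 0.304), and its 4 high fat arrays were all just below the low fat ones. The rises were of Klf14, Klf6 by 0.40 (SE 0.13, adjusted p = 0.0283) and Bcl6, a repressor, by 0.68 (SE 0.16, adjusted p = 0.0041). Klf6 was not called with arrays centred or without low fat replicate 1 or 3 or high fat replicate 2 or 3.

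Signals that shape fat growth rose in part. In the Wnt and BMP list 10 of 25 tested rose and 0 fell, with a median of 0.43. The count of rises was 5 without the arrays with muscle transcripts and 5 without low fat replicate 3 and high fat replicate 4, where 2 fell, as 2 did with arrays centred. Besides Sfrp5, the related Wnt inhibitor Sfrp4 was at 5.84, 6.59, 6.46 and 6.73 on the low fat diet and 9.15, 8.91, 9.03 and 8.46 on the high fat diet, a rise of 2.49 (SE 0.34, adjusted p = 5.5e-05). Sfrp1 rose by 1.53 (SE 0.19, adjusted p = 2.83e-05). Fzd5, a Wnt receptor, rose by 1.35 (SE 0.29, adjusted p = 0.00194). Wnt10b, a ligand that holds back fat formation, lay under 3 in all 8 arrays and was not tested.

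Imprinted genes, which are expressed from a single parental allele and many of which act on growth, rose in 7 of 17 and fell in 1, with 3 falls without low fat replicate 3 and 3 with arrays centred. Mest, a marker of fat mass expansion, was at 9.71, 9.41, 8.87 and 9.07 on the low fat diet and 12.40, 12.70, 12.76 and 12.62 on the high fat diet and rose by 3.35 (SE 0.17, adjusted p = 4.51e-09). Ndn, which codes for necdin, rose by 0.77 (SE 0.14, adjusted p = 0.000584) while the noncoding RNA Rian was at 6.98, 8.85, 7.32 and 8.38 on the low fat diet and 9.64, 9.27, 9.12 and 9.52 on the high fat diet. Cdkn1c, a cell cycle inhibitor, fell by 1.02 (SE 0.16, adjusted p = 0.000179). Peg3, also paternally expressed, differed by -0.18 (adjusted p = 0.194), and its high fat arrays were all below the low fat ones by a narrow margin.

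Caveolae, small pits of the adipocyte membrane, and lipid droplet proteins changed in both directions: 6 of 20 rose and 4 fell. The list's median was 0.04 and turned to -0.04 with arrays centred on the median, where 7 fell, and 3 rose without the arrays with muscle transcripts. The rises included coat genes of caveolae. Cavin3 lay between 7.33 and 7.92 on the low fat diet and between 9.55 and 10.24 on the high fat diet, and rose by 2.19 (SE 0.17, adjusted p = 3.91e-07), Cavin1 rose by 0.45 (SE 0.12, adjusted p = 0.00651), and Cav1 by 0.38 (SE 0.13, adjusted p = 0.0307) with overlapping groups. Cav1 was not called with arrays centred or without low fat replicate 1 or 3 or high fat replicate 1 or 3. Hilpda, a droplet protein that inhibits lipolysis, rose by 1.43 (SE 0.29, adjusted p = 0.00125). Cidea, a droplet protein of brown and beige fat, was at 11.01, 10.36, 9.97 and 9.15 on the low fat diet and 7.68, 4.83, 5.04 and 7.15 on the high fat diet. Plin5, the perilipin of oxidative tissues, was at 10.92, 10.28, 11.18 and 10.68 on the low fat diet and 9.37, 9.55, 9.73 and 9.52 on the high fat diet and fell by 1.22 (SE 0.22, adjusted p = 0.0005). Fitm2, which helps to bud droplets, fell by 0.77 (SE 0.13, adjusted p = 0.000389) and Abhd5, the activator of the main triglyceride lipase, fell by 0.67 (SE 0.14, adjusted p = 0.00207).

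Of 25 tested genes of fatty acid synthesis 12 fell and 3 rose, with a median of -0.59, and 5 rose without low fat replicate 2. Both acetyl-CoA carboxylases, which make malonyl-CoA, fell: Acaca was at 12.60, 11.39, 12.03 and 11.66 on the low fat diet and 10.19, 9.91, 10.07 and 9.77 on the high fat diet. Acacb was at 12.70, 12.04, 12.85 and 12.58 on the low fat diet and 10.56, 9.98, 10.12 and 10.41 on the high fat diet. Fasn, the fatty acid synthase, was at 12.65, 12.18, 12.58 and 12.00 on the low fat diet and 11.33, 11.25, 11.42 and 11.26 on the high fat diet and fell by 1.04 (SE 0.20, adjusted p = 0.000907). No high fat array of these 3 genes reached a low fat one. Acly, which supplies acetyl-CoA from citrate, and Scd1, the main desaturase of fat, overlapped between diets, with intervals of -0.17 to 0.29 and -0.33 to 0.11; the other probe set of Scd1 was called lower, with a difference of -0.81. The rises were of Scd2, another desaturase, by 0.92 (SE 0.14, adjusted p = 0.000148), Fads2, a desaturase of polyunsaturated fatty acids, by 0.98 (SE 0.17, adjusted p = 0.000396), and Pnpla3, a lipase-like protein, by 2.21 (SE 0.41, adjusted p = 0.000706). Fads1, the partner of Fads2, fell by 0.93 (SE 0.14, adjusted p = 0.000162).

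**Figure D3:**
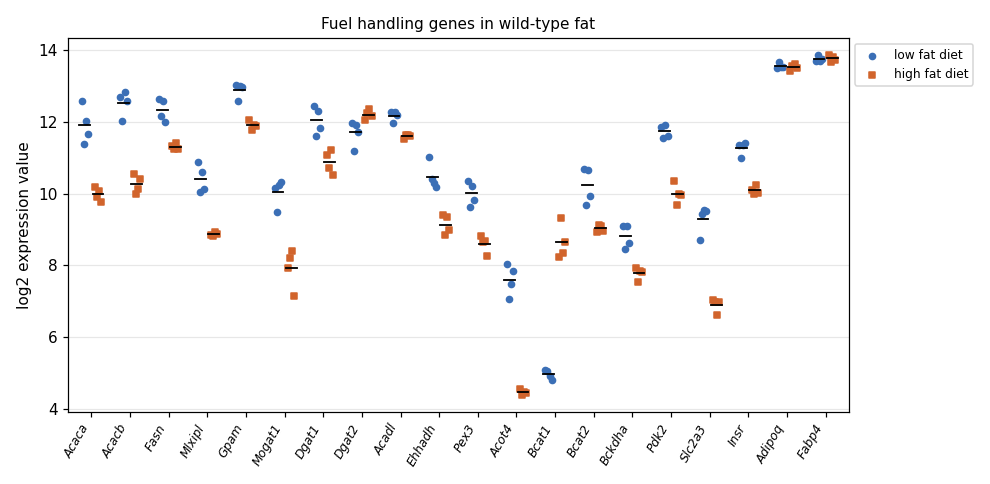
Log2 values of 20 genes of fuel handling in each of the 8 wild-type arrays, circles for the low fat diet and squares for the high fat diet, with horizontal bars at the means of 4. Bcat1 and Dgat2 are higher on the high fat diet and Adipoq and Fabp4 overlap, while the other 16 genes are lower with no overlap.

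Of 21 genes that build triglyceride, 9 fell and 4 rose. Centring the arrays left 2 rises, as did leaving out those with muscle transcripts, and there were 2 without high fat replicate 2 or 3. Gpam, the first acyltransferase of the pathway, was at 13.04, 12.58, 13.01 and 12.96 on the low fat diet and 12.04, 11.77, 11.90 and 11.90 on the high fat diet. Mogat1, a monoacylglycerol acyltransferase, was at 10.16, 9.49, 10.25 and 10.32 on the low fat diet and 7.92, 8.20, 8.39 and 7.14 on the high fat diet, and fell by 2.14 (SE 0.32, adjusted p = 9.88e-05). Dgat1 and Dgat2 carry out the last step. Dgat1 was at 12.44, 11.60, 12.31 and 11.85 on the low fat diet and 11.09, 10.72, 11.23 and 10.53 on the high fat diet, and fell by 1.16 (SE 0.25, adjusted p = 0.00194). Dgat2 was at 11.99, 11.18, 11.93 and 11.73 on the low fat diet and 12.05, 12.26, 12.36 and 12.16 on the high fat diet and rose by 0.50 (SE 0.17, adjusted p = 0.0359), with the groups just apart. Its rise was not called with arrays centred (adjusted p = 0.055), with the replicate block (adjusted p = 0.0506), with the wild-type arrays alone, or without low fat replicate 2 or 4 or high fat replicate 2, 3 or 4, while its other probe set was also called higher. Lpin1, a phosphatidate phosphatase, fell by 0.91 (SE 0.15, adjusted p = 0.000327) and Gpat4 fell by 1.39 (SE 0.24, adjusted p = 0.000376).

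Genes of lipolysis and its receptors were split, with 3 up and 6 down of 22; the median, 0.05, turned to -0.04 with arrays centred. Pnpla2, the triglyceride lipase of fat, was at 12.69, 12.67, 12.82 and 12.72 on the low fat diet and 12.23, 12.18, 12.26 and 12.16 on the high fat diet and fell by 0.52 (SE 0.09, adjusted p = 0.000406). Lipe, the hormone-sensitive lipase, fell by 0.44 (SE 0.16, adjusted p = 0.0458), with overlapping groups. Lipe was not called with its probe sets averaged (adjusted p = 0.184), with no filter on low values, with the wild-type arrays alone, or without any single wild-type array other than low fat replicate 2. Its other probe set differed by 0.03. Pde3b, which breaks down the cyclic AMP that drives lipolysis, fell by 0.67 (SE 0.11, adjusted p = 0.000179). Ffar4, a receptor of long-chain fatty acids, was at 8.58, 7.78, 7.88 and 8.31 on the low fat diet and 6.67, 6.65, 6.94 and 6.18 on the high fat diet and fell by 1.53 (SE 0.25, adjusted p = 0.000224). The receptors that rose were Sucnr1 for succinate, by 1.38 (SE 0.19, adjusted p = 6.13e-05), Npr3, which clears natriuretic peptides, by 1.23 (SE 0.17, adjusted p = 7.12e-05), and Ffar2 for short-chain fatty acids, by 0.97 (SE 0.16, adjusted p = 0.000196). None of these 3 receptors overlapped between diets, which their choice by a small p favours.

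In the list of mitochondrial fatty acid oxidation 10 of 20 genes fell and 1 rose, with a median of -0.45, and without the arrays with muscle transcripts 4 fell. Acadl, the long-chain acyl-CoA dehydrogenase, was at 12.27, 11.97, 12.29 and 12.19 on the low fat diet and 11.54, 11.63, 11.65 and 11.62 on the high fat diet and fell by 0.57 (SE 0.15, adjusted p = 0.00842). Acadvl fell by 0.95 (SE 0.18, adjusted p = 0.000732), Acot2, a mitochondrial thioesterase, fell by 0.96 (SE 0.19, adjusted p = 0.00122) and Ucp3, a mitochondrial carrier, fell by 1.41 (SE 0.26, adjusted p = 0.000584). The exception was Cpt1a, which admits fatty acids to mitochondria, with a rise of 0.62 (SE 0.20, adjusted p = 0.0271) and overlapping groups. It was not called with arrays centred or without low fat replicate 1 or 3 or high fat replicate 1 or 3. The 2 other probe sets of Cpt1a differed by 0.73 and 1.07 and were both called higher.

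In the peroxisome list, which holds genes of peroxisome assembly as well as of oxidation, 16 of 29 fell and 1 rose, and 7 fell without the arrays with muscle transcripts and 10 without low fat replicate 3 and high fat replicate 4. Acot3, a thioesterase that frees fatty acids from CoA, was at 7.84, 6.38, 7.54 and 7.03 on the low fat diet and 1.85, 1.96, 1.81 and 1.62 on the high fat diet. Every high fat array was under 2, and with values set to 4 it fell by 3.20. Its relative Acot4, the succinyl-CoA thioesterase, was at 8.04, 7.05, 7.49 and 7.84 on the low fat diet and 4.56, 4.39, 4.47 and 4.42 on the high fat diet and fell by 3.14 (SE 0.25, adjusted p = 5.48e-07); probe sets of such paralogs can share signal. Ehhadh, the bifunctional enzyme of peroxisomal oxidation, was at 11.03, 10.41, 10.29 and 10.19 on the low fat diet and 9.40, 8.84, 9.34 and 8.98 on the high fat diet. Pex3, which inserts peroxisome membrane proteins, was at 10.36, 9.63, 10.23 and 9.82 on the low fat diet and 8.83, 8.65, 8.68 and 8.27 on the high fat diet and fell by 1.40 (SE 0.21, adjusted p = 0.000136). All 4 genes were lower in every high fat array.

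Breakdown of branched-chain amino acids fell in 13 of 26 genes and rose in 2, with 8 falls without the arrays with muscle transcripts. The 2 transaminases of the first step moved in opposite directions. Bcat2, the mitochondrial one, was at 10.69, 9.69, 10.65 and 9.95 on the low fat diet and 8.94, 9.12, 9.11 and 8.96 on the high fat diet, and fell by 1.21 (SE 0.25, adjusted p = 0.00169). Bcat1, the cytosolic one, was at 5.08, 5.05, 4.92 and 4.79 on the low fat diet and 8.23, 9.32, 8.36 and 8.66 on the high fat diet, a rise of 3.68 (SE 0.38, adjusted p = 5.22e-06). Neither overlapped between diets. Bckdha, a subunit of the dehydrogenase complex that commits these amino acids to breakdown, was at 9.11, 8.46, 9.09 and 8.62 on the low fat diet and 7.92, 7.55, 7.85 and 7.80 on the high fat diet. Ppm1k, the phosphatase that activates the complex, fell by 0.92 (SE 0.13, adjusted p = 6.34e-05) and Dbt, another subunit, fell by 0.91 (SE 0.16, adjusted p = 0.000465). Oxct1, which uses ketone bodies, rose by 0.61 (SE 0.09, adjusted p = 0.000119).

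Mitochondrial energy genes fell in part, without any rise. In the citric acid cycle list 11 of 26 fell (4 without the arrays with muscle transcripts), and in the respiratory chain 11 of 38. For the latter, leaving out the arrays with muscle transcripts gave 3 falls, and the count was 6 without low fat replicate 3 and high fat replicate 4 and 19 with arrays centred. It was 6 without low fat replicate 1, low fat replicate 3 or high fat replicate 2, and 7 without high fat replicate 1 or 3. Pdk2, a kinase that switches off pyruvate dehydrogenase, was at 11.87, 11.56, 11.92 and 11.61 on the low fat diet and 10.35, 9.68, 9.99 and 9.97 on the high fat diet. Pdk1 and Pdk4, kinases of the same kind, were also among the falls of the citric acid cycle list. That count therefore includes inhibitors of entry to the cycle, not only its enzymes. Pcx, the pyruvate carboxylase that refills the cycle, was at 12.66, 11.89, 12.60 and 12.03 on the low fat diet and 10.80, 11.15, 11.33 and 11.15 on the high fat diet and fell by 1.19 (SE 0.22, adjusted p = 0.000664). Cs, the citrate synthase, overlapped between diets (difference -0.22, interval -0.50 to 0.07). Ndufa10 of complex I fell by 0.65 (SE 0.15, adjusted p = 0.0031) and Uqcrfs1 of complex III fell by 0.56 (SE 0.13, adjusted p = 0.00294), while Cox4i1 of complex IV was lower by 0.21 without passing the threshold (adjusted p = 0.107).

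Thermogenic genes of brown and beige fat fell in 9 of 16 and rose in 1, with a median of -0.73. Ucp1, the uncoupling protein that makes heat, was at 10.35, 10.05, 10.27 and 7.80 on the low fat diet and 8.19, 4.74, 4.57 and 6.37 on the high fat diet. High fat replicate 1 lay above low fat replicate 4, so the groups overlapped, and Ucp1 fell by 3.65 (SE 0.81, adjusted p = 0.00257). Cidea and Cox8b, a subunit of complex IV, were, like Ucp1, highest in replicate 1 and lowest in replicate 4 among the low fat arrays; Cox8b was at 10.42, 9.61, 9.51 and 8.75 on the low fat diet and 8.51, 7.42, 7.91 and 7.84 on the high fat diet. Ppargc1a, the coactivator of mitochondrial biogenesis, fell by 1.63 (SE 0.28, adjusted p = 0.000411). Prdm16, a factor that sets brown and beige identity, was at 5.52, 5.58, 6.16 and 6.79 on the low fat diet and 5.63, 5.76, 6.16 and 6.44 on the high fat diet and did not pass the threshold (interval -0.57 to 0.54). The rise was of Ckb, a creatine kinase of heat-making creatine cycling, by 1.27 (SE 0.29, adjusted p = 0.00327).

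Lipoprotein genes fell in 9 of 24 and rose in 3. The count of rises was 0 by limma without the arrays with muscle transcripts (2 at an unadjusted p under 0.05), 1 without low fat replicate 3 and high fat replicate 4 and 1 without high fat replicate 2. Besides Apoc3 and Pon1, Pon3 fell by 0.66 (SE 0.08, adjusted p = 3.25e-05), and Npc1, which exports cholesterol from lysosomes, was at 9.87, 9.19, 10.02 and 9.70 on the low fat diet and 7.68, 8.36, 7.65 and 7.88 on the high fat diet and fell by 1.80 (SE 0.18, adjusted p = 4.1e-06). Lpl, the lipase that releases fatty acids from lipoproteins, and Apoe overlapped between diets, with intervals of -0.34 to 0.15 and -0.48 to 0.09. Cholesterol synthesis had 4 genes up and 2 down of 19, near the share over all genes. Dhcr7, its last enzyme, rose by 0.69 (SE 0.12, adjusted p = 0.000366), while Pmvk fell by 1.38 (SE 0.27, adjusted p = 0.00107) and Fdft1 fell by 0.72 (SE 0.13, adjusted p = 0.000637).

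Genes of glucose handling changed in both directions, and few of insulin signalling were called. Of 24 glucose genes 4 rose and 6 fell, and of 29 signalling genes 1 rose and 5 fell. Over all genes 20.5% rose and 15.2% fell, so that the rises of glucose genes (16.7%) were near that share. Those of signalling genes (3.45%) were under it. For glucose genes 2 rose and 3 fell without the arrays with muscle transcripts. There 4 signalling genes rose, and 3 without low fat replicate 4. The rises of glucose genes numbered 2 without low fat replicate 3 and high fat replicate 4, 1 without high fat replicate 2, and 2 without high fat replicate 4 or without low fat replicate 2. Slc2a3, a glucose transporter with high affinity, was at 8.71, 9.43, 9.55 and 9.52 on the low fat diet and 7.03, 6.99, 6.63 and 6.97 on the high fat diet, and fell by 2.40 (SE 0.25, adjusted p = 4.74e-06). Slc2a4, the insulin-dependent transporter GLUT4, overlapped between diets at 11.12, 10.98, 11.45 and 10.80 on the low fat diet and 11.02, 10.70, 11.03 and 10.47 on the high fat diet. Insr, the insulin receptor, was at 11.36, 10.99, 11.35 and 11.42 on the low fat diet and 10.11, 10.01, 10.24 and 10.02 on the high fat diet and was lower in every high fat array. Irs2, a receptor substrate, fell by 0.69 (SE 0.19, adjusted p = 0.00846), and Irs1 and Akt2 did not pass the threshold (-0.41 and -0.36, adjusted p = 0.17 and 0.127), though 1 of 2 other probe sets of Akt2 was called lower. Grb14, an inhibitor of the insulin receptor, rose by 1.01 (SE 0.25, adjusted p = 0.00512), and its other probe set differed by -0.11. Tpi1, a glycolytic enzyme, rose by 0.90 (SE 0.12, adjusted p = 3.72e-05), and Gys1, a glycogen synthase, fell by 1.25 (SE 0.29, adjusted p = 0.0036). Nmnat3, an NAD-making enzyme of mitochondria, fell by 1.12 (SE 0.20, adjusted p = 0.000527). In its sirtuin and NAD list 3 of 20 rose and 4 fell, near the shares over all genes. The rises numbered 0 by limma without high fat replicate 2 (3 at an unadjusted p under 0.05) and 1 without low fat replicate 1 or 4, without the arrays with muscle transcripts or without low fat replicate 3 and high fat replicate 4, and with arrays centred 1 rose and 8 fell.

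Clock genes fell in 8 of 18, with none up and a median of -0.46, and 5 fell without the arrays with muscle transcripts. Nr1d1, the repressor REV-ERB alpha, was at 10.06, 9.36, 9.76 and 9.98 on the low fat diet and 8.19, 8.09, 7.67 and 7.30 on the high fat diet. Per1, whose promoter is printed above, was at 9.86, 9.07, 9.66 and 9.97 on the low fat diet and 8.12, 8.64, 8.21 and 8.22 on the high fat diet, and Ciart, a repressor of the clock, at 5.71, 6.61, 6.76 and 7.17 on the low fat diet and 4.92, 4.62, 3.42 and 3.91 on the high fat diet. Dbp, an output factor of the clock, was at 10.93, 10.32, 11.31 and 10.99 on the low fat diet and 10.18, 9.62, 9.63 and 8.90 on the high fat diet and fell by 1.31 (SE 0.27, adjusted p = 0.00147). In these 4 genes all high fat arrays were below all low fat arrays. Hlf, related to Dbp, fell by 1.42 (SE 0.21, adjusted p = 9.94e-05). Arntl, the gene of BMAL1, did not pass the threshold, at 4.46, 3.70, 2.73 and 2.86 on the low fat diet and 3.45, 4.07, 4.54 and 4.92 on the high fat diet. Its groups overlapped, 4 of the 8 values were under 4, and its other probe set differed by -0.02. In the steroid hormone list 3 of 22 rose and 9 fell, and 5 fell without the arrays with muscle transcripts. Fkbp5, a target of the glucocorticoid receptor, was at 11.38, 11.18, 11.90 and 11.81 on the low fat diet and 10.22, 10.18, 9.10 and 9.78 on the high fat diet and fell by 1.75 (SE 0.24, adjusted p = 6.22e-05). The receptor gene itself, Nr3c1, and Hsd11b1, which regenerates active glucocorticoid, overlapped between diets (0.19 and -0.23, adjusted p = 0.323 and 0.171). Of 5 other probe sets of Nr3c1, 1 was called higher and 1 lower.

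Immediate early genes, which respond within minutes to signals and to handling, rose in 7 of 19 and fell in 2. The counts were 4 and 1 without the arrays with muscle transcripts. Fos was at 7.16, 9.13, 7.08 and 10.11 on the low fat diet and 9.86, 11.65, 10.52 and 11.53 on the high fat diet. Replicates 2 and 4 were the highest within each diet, and the groups overlapped. Egr2 was at 6.37, 5.68, 5.45 and 6.57 on the low fat diet and 9.19, 10.10, 8.89 and 9.62 on the high fat diet, with no overlap. Nr4a3, an orphan nuclear receptor induced by cyclic AMP, was at 10.44, 9.78, 10.41 and 10.58 on the low fat diet and 6.40, 7.19, 6.83 and 7.53 on the high fat diet, and fell by 3.31 (SE 0.24, adjusted p = 2.42e-07). Its other probe sets differed by -0.10 to 0.08, and none was called. Nr4a1, a relative of Nr4a3, overlapped between diets (-0.22, adjusted p = 0.742).

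Collagen had the highest share of rises among the lists with 8 or more tested genes. Of 22 tested chains 19 rose and none fell, with a median of 1.17, and the count was 19 in each alternative that left out arrays. Col15a1, a chain at basement membranes, was at 7.82, 7.22, 6.86 and 6.53 on the low fat diet and 10.49, 10.60, 10.90 and 10.78 on the high fat diet. Col6a3, a chain of collagen VI and the source of endotrophin, was at 9.27, 9.34, 9.40 and 9.23 on the low fat diet and 11.37, 11.05, 10.97 and 11.20 on the high fat diet and rose by 1.84 (SE 0.22, adjusted p = 1.82e-05). Col1a1, a chain of the main fibril collagen, was at 10.53, 10.72, 9.86 and 10.25 on the low fat diet and 12.15, 11.85, 11.79 and 12.04 on the high fat diet, a rise of 1.62 (SE 0.23, adjusted p = 6.34e-05). Col5a3 rose by 2.18 (SE 0.17, adjusted p = 4.32e-07), with its other probe set at a difference of -0.22, Col6a1 by 1.34 (SE 0.11, adjusted p = 6.73e-07) and Col6a2 by 1.89 (SE 0.17, adjusted p = 1.79e-06). The 4 high fat arrays were above the 4 low fat arrays in all 19 chains that rose, which being called favours. The same held for 17.7% of all genes tested.

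Other matrix genes rose in 24 of 45 and fell in 2, with 0 falls by limma (2 at an unadjusted p under 0.05) without the arrays with muscle transcripts, without low fat replicate 3 and high fat replicate 4 or without high fat replicate 2. Serpinh1, the collagen chaperone, rose by 1.42 (SE 0.17, adjusted p = 1.91e-05) and Fn1, fibronectin, by 1.06 (SE 0.17, adjusted p = 0.000213). Adamts5, a protease of proteoglycans, was at 9.78, 10.22, 10.51 and 10.88 on the low fat diet and 11.73, 12.19, 12.00 and 12.06 on the high fat diet. Mmp12, the elastase of macrophages, was at 6.80, 6.18, 5.72 and 3.95 on the low fat diet and 8.77, 11.56, 9.29 and 10.94 on the high fat diet; high fat replicates 2 and 4 were higher than 1 and 3. Lox, which crosslinks collagen, did not pass the threshold, with low fat values of 9.84, 10.93, 11.02 and 11.42 and high fat values of 10.92, 11.13, 10.61 and 10.52. In the TGF-beta list 6 of 28 rose, near the 20.5% over all genes, and 1 fell. Tgfb1, a driver of fibrosis, was at 5.09, 5.23, 5.05 and 5.69 on the low fat diet and 5.86, 6.68, 6.46 and 6.90 on the high fat diet and rose by 1.21 (SE 0.25, adjusted p = 0.00143). The other probe set of Tgfb1 differed by 0.12 and was not called. Fstl1, a follistatin-like protein, rose by 1.24 (SE 0.16, adjusted p = 3.31e-05).

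Vessel and progenitor genes rose in part. Of 21 endothelial genes 8 rose and 2 fell, and 5 rose without low fat replicate 1. Aplnr, the receptor of apelin, was at 10.11, 10.13, 9.48 and 10.02 on the low fat diet and 12.00, 11.60, 11.93 and 11.58 on the high fat diet and rose by 1.84 (SE 0.20, adjusted p = 7.61e-06). Cldn5, a tight junction protein of endothelium, rose by 1.40 (SE 0.15, adjusted p = 8.22e-06) and Angpt2 by 1.17 (SE 0.17, adjusted p = 8.18e-05), while its rival Angpt1 fell by 0.67 (SE 0.18, adjusted p = 0.00944). Pecam1, the pan-endothelial marker, was just short of the threshold (0.50, adjusted p = 0.0547). Vegfa, the main vessel growth factor, was at 10.78, 11.50, 10.39 and 10.87 on the low fat diet and 10.41, 10.05, 10.19 and 9.77 on the high fat diet, and fell by 0.78 (SE 0.21, adjusted p = 0.00942) with overlapping groups. In the hypoxia list 3 of 20 rose and 6 fell, 3 without the arrays with muscle transcripts; Egln3, an oxygen-sensing hydroxylase, fell by 2.35 (SE 0.37, adjusted p = 0.000162). Of 15 stromal progenitor genes 8 rose and none fell. Thy1, a surface marker of fibroblast-like progenitors, was at 7.15, 6.70, 7.19 and 7.01 on the low fat diet and 8.31, 8.63, 8.43 and 8.64 on the high fat diet, and Cd248 at 8.06, 8.39, 8.92 and 8.97 on the low fat diet and 9.71, 9.77, 9.88 and 9.81 on the high fat diet. Pdgfra and Dpp4, which define these cells, overlapped between diets, with intervals of -0.07 to 0.61 and -0.43 to 0.41.

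Genes of the cytoskeleton and of annexins rose in 19 of 34, and none fell. S100b, a calcium-binding protein of adipocytes and glia, was at 4.15, 4.77, 4.64 and 4.68 on the low fat diet and 6.76, 6.41, 6.67 and 6.45 on the high fat diet and rose by 2.02 (SE 0.17, adjusted p = 7.85e-07). S100a4, a marker of fibroblasts and macrophages, rose by 1.75 (SE 0.21, adjusted p = 2.07e-05) and Coro1a, an actin-binding protein of leukocytes, by 1.35 (SE 0.14, adjusted p = 4.8e-06). Actb did not pass the threshold (0.24, adjusted p = 0.0726). Smooth muscle and pericyte markers rose in 4 of 11, and in 7 without high fat replicate 2. Their mean log2 value was 9.06 to 9.38 in the low fat arrays and 9.34 to 10.67 in the high fat arrays, highest in replicate 4, the array with epithelial transcripts. The part of these cells and of that array in the cytoskeleton and annexin list was not tested beyond leaving arrays out. Of that list 16 members rose without that array and low fat replicate 3, and 17 to 21 without any 1 wild-type array.

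Macrophage markers rose in 13 of 23 and fell in 1. Adgre1, the F4/80 antigen, was at 10.53, 10.79, 10.55 and 10.80 on the high fat diet, in every array above all low fat arrays, and rose by 1.25 (SE 0.21, adjusted p = 0.000326). Cd68 was at 8.67, 9.48, 9.95 and 10.57 on the low fat diet and 10.17, 11.76, 10.69 and 11.58 on the high fat diet, with groups that overlapped. Folr2 and Ms4a7, markers of tissue macrophages, rose by 1.39 (SE 0.25, adjusted p = 0.000581) and 1.41 (SE 0.23, adjusted p = 0.000224). Cd163, a scavenger receptor of resident macrophages, did not pass the threshold (0.20, interval -0.18 to 0.58). Mertk, a receptor for dying cells, fell by 0.80 (SE 0.15, adjusted p = 0.000647).

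Of 21 genes known from lipid-loaded macrophages 15 rose and none fell. They had the highest median of all lists, 1.53. Trem2, the lipid receptor that defines these cells, was at 4.74, 5.03, 4.71 and 4.91 on the low fat diet and 6.12, 8.08, 5.86 and 7.89 on the high fat diet. Its other probe set differed by 0.04 and was not called. Gpnmb, a lysosome-related membrane protein, was at 8.86, 8.90, 8.82 and 9.07 on the low fat diet and 9.33, 11.43, 9.92 and 11.42 on the high fat diet. Il1rn, the antagonist of the interleukin 1 receptor, was at 4.57, 4.14, 3.55 and 4.46 on the low fat diet and 6.27, 9.83, 7.06 and 9.15 on the high fat diet. In these genes high fat replicates 2 and 4 were higher than replicates 1 and 3, and all 4 were above the low fat arrays. Itgax, the CD11c integrin, was at 5.25, 3.69, 3.74 and 3.45 on the low fat diet and 7.02, 8.99, 8.14 and 8.70 on the high fat diet and rose by 4.18 (SE 0.40, adjusted p = 2.45e-06). Over the whole list, high fat replicates 2 and 4 stood 2.18 and 2.10 above the low fat mean, and replicates 1 and 3 0.75 and 1.20.

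**Figure D4:**
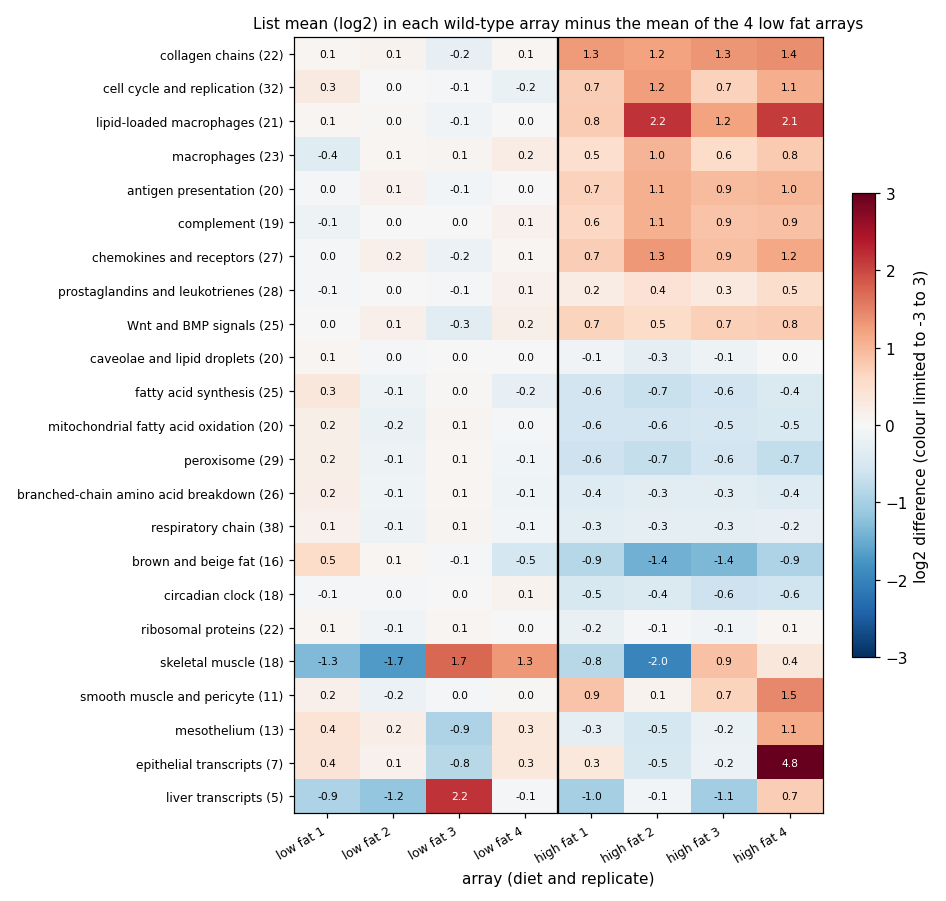
Mean log2 value of the tested members of selected lists in each wild-type array, as the difference from the mean of the 4 low fat arrays (number tested in parentheses). The lipid-loaded macrophage list is highest in high fat replicates 2 and 4 (2.18 and 2.10), collagen is even across the 4 high fat arrays (1.20 to 1.39), and the lower rows show muscle, epithelial and liver transcripts in single arrays.

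Antigen presentation rose in 16 of 20 genes with none down, and in 11 without the arrays with muscle transcripts. H2-DMa, which loads peptides on class II molecules, lay between 6.99 and 7.57 on the low fat diet and between 8.74 and 9.21 on the high fat diet, and rose by 1.73 (SE 0.18, adjusted p = 4.24e-06). Ciita, the master activator of class II genes, was at 5.11, 4.63, 4.64 and 4.50 on the low fat diet and 5.78, 5.96, 6.10 and 6.06 on the high fat diet. The class II chain H2-Aa rose by 0.75 (SE 0.11, adjusted p = 0.000138) and the invariant chain Cd74 by 0.46 (SE 0.12, adjusted p = 0.00847). None of these 4 genes overlapped between diets.

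Chemokines and their receptors rose in 16 of 27 and fell in 1. Ccr2, the receptor that brings monocytes into tissue, was at 8.38, 9.48, 9.23 and 9.24 on the low fat diet and 10.85, 10.57, 10.79 and 10.75 on the high fat diet and rose by 1.65 (SE 0.20, adjusted p = 1.55e-05). Its ligand Ccl2 was at 5.63, 5.26, 4.81 and 5.76 on the low fat diet and 5.73, 8.25, 7.20 and 7.48 on the high fat diet; high fat replicate 1 lay below the highest low fat array, so that the groups overlapped. Ccl8 and Ccl12, other ligands of monocytes, rose by 2.39 (SE 0.38, adjusted p = 0.000176) and 2.55 (SE 0.42, adjusted p = 0.000282). Cxcl12, a stromal chemokine, rose by 0.65 (SE 0.20, adjusted p = 0.0185), but with its probe sets averaged the change was 0.04 (adjusted p = 0.865), and it was not called without low fat replicate 3. Ccl25 fell by 1.29 (SE 0.19, adjusted p = 8.56e-05).

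Complement rose in 15 of 19 genes and fell in 1. Cfb, factor B of the alternative pathway, was at 9.68, 9.70, 10.01 and 9.82 on the low fat diet and 11.10, 11.61, 11.75 and 11.51 on the high fat diet and rose by 1.69 (SE 0.13, adjusted p = 5.26e-07). C1qa, of the classical pathway's first component, was at 8.43, 9.89, 10.20 and 9.52 on the low fat diet and 10.67, 10.93, 10.36 and 10.51 on the high fat diet, a rise of 1.11 (SE 0.27, adjusted p = 0.00531) with the groups just apart. The regulators Cd55 and Cd59a, which protect cells from complement, rose by 0.86 (SE 0.15, adjusted p = 0.000328) and 0.91 (SE 0.15, adjusted p = 0.000258). Masp1, a protease of the lectin pathway, fell by 1.96 (SE 0.28, adjusted p = 7.06e-05).

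In the inflammasome, NF-kB and Toll-like receptor list 13 of 30 rose and 1 fell. Tnfaip3, the feedback inhibitor A20, was at 6.77, 7.23, 6.84 and 6.66 on the low fat diet and 8.31, 8.67, 8.37 and 8.28 on the high fat diet, a rise of 1.53 (SE 0.15, adjusted p = 4.1e-06). Pycard, the inflammasome adaptor, was at 6.93, 7.03, 7.05 and 7.21 on the low fat diet and 8.23, 9.15, 8.18 and 9.38 on the high fat diet. Tlr2 rose by 0.89 (SE 0.13, adjusted p = 7.02e-05). The cytokine genes Il1b and Tnf lay under the minimum of 4 in all 8 arrays and were not tested. Interferon-response genes rose in 10 of 23 with none down: Irf8, a factor of myeloid cells, rose by 1.46 (SE 0.18, adjusted p = 1.9e-05) and Bst2 by 1.12 (SE 0.21, adjusted p = 0.000616), while Irf7 did not pass the threshold (0.10, adjusted p = 0.712).

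Lymphocyte and granulocyte lists held few detected genes. Of 17 T and NK cell genes 6 rose and 1 fell. Gzma, a granzyme, was at 5.66, 5.01, 6.14 and 4.00 on the low fat diet and 7.60, 7.76, 7.46 and 7.30 on the high fat diet, and Cd2 rose by 1.21 (SE 0.20, adjusted p = 0.000257). The T cell markers Cd3e and Cd8a overlapped between diets, with intervals of -0.34 to 0.85 and -0.46 to 0.64. Ighm, the heavy chain of IgM, was at 8.03, 8.53, 6.79 and 7.52 on the low fat diet and 9.31, 8.95, 9.73 and 9.18 on the high fat diet and rose by 1.58 (SE 0.33, adjusted p = 0.00176). Ighm has 11 probe sets, and of the others only 1 was called, also higher. Of 8 B cell genes 4 rose. The count was 2 without low fat replicate 3 or high fat replicate 2, and 0 by limma when the arrays with muscle transcripts were left out, with 4 at an unadjusted p under 0.05. In the mast cell and granulocyte list 2 of 13 rose and 1 fell, with a median of -0.17. S100a8, a calcium-binding protein of neutrophils, was at 5.80, 4.28, 5.35 and 5.13 on the low fat diet and 8.10, 8.44, 8.60 and 8.88 on the high fat diet and rose by 3.37 (SE 0.41, adjusted p = 2.09e-05). Cpa3, a protease of mast cells, overlapped between diets (-0.17, adjusted p = 0.654).

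Lysosome genes rose in 18 of 40 and fell in 1, which was Npc1. Atp6v0d2, a proton pump subunit of macrophages and osteoclasts, was at 6.43, 5.77, 5.15 and 5.22 on the low fat diet and 6.77, 9.58, 7.67 and 9.57 on the high fat diet. Ctsk, a collagen-cleaving cathepsin, was at 6.13, 6.40, 6.45 and 7.01 on the low fat diet and 7.65, 8.28, 8.03 and 8.16 on the high fat diet, and Ctss and Ctsh rose by 1.04 (SE 0.17, adjusted p = 0.000217) and 1.20 (SE 0.16, adjusted p = 3.97e-05). Lamp1, a lysosome membrane protein, was slightly higher in every high fat array but did not pass the threshold (0.19, adjusted p = 0.082). In the unfolded protein response list 6 of 28 rose and 3 fell, near the 20.5% and 15.2% over all genes. The rises numbered 2 without the arrays with muscle transcripts and 3 with arrays centred or without high fat replicate 2. The main chaperone Hspa5 and the stress factor Ddit3 did not pass the threshold (0.21 and 0.30, adjusted p = 0.179 and 0.172). Asns and Chac1, targets of the amino acid response, had changes of -1.15 (SE 0.12, adjusted p = 7.36e-06) and -1.29 (SE 0.21, adjusted p = 0.000191).

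The prostaglandin and leukotriene list had 12 rises and 3 falls among 28 genes. Ptgds, a prostaglandin D synthase, was at 7.76, 6.68, 6.99 and 6.73 on the low fat diet and 3.00, 2.98, 3.04 and 3.16 on the high fat diet. Every high fat array was near 3, and with values set to 4 it fell by 3.04. Ptgfr, the prostaglandin F receptor, was at 6.78, 7.36, 7.43 and 7.04 on the low fat diet and 6.02, 5.12, 4.99 and 5.03 on the high fat diet and fell by 1.86 (SE 0.25, adjusted p = 3.94e-05). Ptgr1, which inactivates prostaglandins and leukotriene B4, was at 6.29, 6.83, 6.68 and 6.77 on the low fat diet and 9.07, 9.46, 9.26 and 11.03 on the high fat diet, a rise of 3.06 (SE 0.32, adjusted p = 5.31e-06) with its highest value in high fat replicate 4. Ltc4s, the leukotriene C4 synthase, was at 8.48, 8.72, 9.10 and 8.99 on the low fat diet and 9.99, 10.37, 10.33 and 9.99 on the high fat diet. Ptger4, a prostaglandin E2 receptor, rose by 0.81 (SE 0.12, adjusted p = 9.17e-05), and Ptgs2, the inducible cyclooxygenase, overlapped between diets (0.61, adjusted p = 0.176).

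Iron and heme genes changed in both directions. Of 27 iron and heme genes 9 rose and 3 fell. Hfe, a sensor of iron loading, was at 8.93, 9.26, 9.41 and 9.21 on the low fat diet and 10.89, 10.75, 10.99 and 10.81 on the high fat diet and rose by 1.66 (SE 0.11, adjusted p = 1.25e-07). Cp, the iron-oxidising ceruloplasmin, was at 11.46, 11.76, 11.58 and 11.39 on the low fat diet and 10.31, 9.30, 9.64 and 9.51 on the high fat diet, and fell by 1.86 (SE 0.18, adjusted p = 3.68e-06). Both enzymes that start heme synthesis were lower: Alas1 fell by 1.07 (SE 0.18, adjusted p = 0.000321) and Alad fell by 1.15 (SE 0.23, adjusted p = 0.0012), and Hmox1, which breaks heme down, rose by 1.35 (SE 0.24, adjusted p = 0.000562). In the glutathione and redox list 8 of 40 rose and 6 fell, near the 20.5% and 15.2% over all genes, and its median of 0.05 turned to -0.03 with arrays centred. The falls numbered 2 without the arrays with muscle transcripts and 3 without low fat replicate 4 or without high fat replicate 1 or 3. Sod3, the superoxide dismutase outside cells, rose by 1.15 (SE 0.13, adjusted p = 1.13e-05) and Gpx3, the plasma glutathione peroxidase, fell by 0.74 (SE 0.13, adjusted p = 0.000406). In the cytochrome P450 list 8 of 32 rose and 6 fell, also near the shares over all genes, and 11 fell with arrays centred. Cyp2d22 fell by 1.29 (SE 0.12, adjusted p = 1.79e-06) and Cyp2e1 fell by 0.72 (SE 0.15, adjusted p = 0.0017).

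Transporters and nerve-type genes included large single changes. Of 28 transporters 8 rose and 8 fell, 5 without the arrays with muscle transcripts. Slc43a1, a carrier of branched-chain and other large amino acids, was at 9.28, 9.17, 9.95 and 8.77 on the low fat diet and 6.89, 6.98, 6.86 and 6.49 on the high fat diet, and fell by 2.49 (SE 0.21, adjusted p = 8.07e-07). Slc5a6, the carrier of biotin and pantothenate, was at 8.38, 8.05, 9.01 and 8.07 on the low fat diet and 6.35, 5.60, 6.11 and 5.27 on the high fat diet. Slc6a13, a GABA transporter, rose by 2.15 (SE 0.25, adjusted p = 1.46e-05). Abat, the enzyme that breaks GABA down, was at 8.55, 8.52, 8.33 and 8.76 on the low fat diet and 10.37, 11.05, 10.92 and 10.55 on the high fat diet and rose by 2.18 (SE 0.18, adjusted p = 6.89e-07). Drd1, a dopamine receptor, was at 5.91, 6.75, 6.45 and 6.29 on the low fat diet and 2.58, 3.06, 3.21 and 2.99 on the high fat diet; with values set to 4 it fell by 2.35. Npy1r, the neuropeptide Y receptor of adipocytes, was at 5.22, 5.17, 5.20 and 5.26 on the low fat diet and 6.68, 6.56, 6.35 and 6.62 on the high fat diet and rose by 1.34 (SE 0.20, adjusted p = 0.000101). The other probe set of Npy1r differed by 0.01 and was not called.

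Cell cycle genes rose in 20 of 32 and fell in 1, with a median of 0.81. Levels were low: Mki67, the marker of dividing cells, was at 5.33, 4.96, 4.19 and 3.84 on the low fat diet and 6.67, 7.43, 6.46 and 7.06 on the high fat diet. Ccnb2, the mitotic cyclin whose promoter is printed above, was at 2.97, 3.12, 2.64 and 2.48 on the low fat diet and 4.81, 4.94, 4.32 and 4.89 on the high fat diet; its low fat values were all under 4, and the rise with values set to 4 was 0.74. Rrm2, a subunit of ribonucleotide reductase, was at 8.19, 8.05, 7.56 and 7.63 on the low fat diet and 9.47, 10.08, 9.39 and 9.99 on the high fat diet. Cdk1, the mitotic kinase, was at 5.91, 5.31, 4.81 and 4.71 on the low fat diet and 6.18, 7.08, 6.25 and 6.81 on the high fat diet and rose by 1.39 (SE 0.25, adjusted p = 0.000513). Cdc6, which licenses replication origins, rose by 1.73 (SE 0.21, adjusted p = 1.85e-05). Mcm7, a helicase subunit, fell by 0.76 (SE 0.15, adjusted p = 0.000878). Cdkn1a, the inhibitor p21, rose by 0.63 (SE 0.21, adjusted p = 0.0286) with overlapping groups, a call that was lost with arrays centred or without low fat replicate 1 or 4 or high fat replicate 2 or 4, and Cdkn2a lay under 3 in all 8 arrays.

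Several groups served as a reference. Of 22 ribosomal protein genes 0 passed limma's threshold in either direction, 0 had an unadjusted p under 0.05, and 2 were called lower with arrays centred. The median was -0.11. Proteasome genes fell in 6 of 27, and in 1 without the arrays with muscle transcripts. Among the brightest genes, those with a difference nearest to 0 included Rps4x at 12.70, 12.78, 12.73 and 12.79 on the low fat diet and 12.59, 12.75, 12.85 and 12.80 on the high fat diet, with an interval of -0.21 to 0.21, and the chaperone gene Hsp90aa1, with an interval of -0.28 to 0.28. Of 13 mesothelial markers, of the lining of visceral fat pads, each was above 4 in at least 1 wild-type array; 1 of them fell, and 6 did without low fat replicate 3 and high fat replicate 4, and 4 without low fat replicate 3 alone. Their mean log2 value was 7.67 to 9.02 in the low fat arrays and 8.07 to 9.72 in the high fat arrays.

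The diet effect in wild-type fat was then set against that in knockout fat. Sirt1, the deleted gene, was at 9.42, 9.88, 9.02 and 9.41 in wild-type fat of the low fat diet and at 8.85, 9.10, 9.08 and 8.85 in that of the high fat diet. In knockout fat it was at 9.37, 9.21, 9.44 and 8.94 on the low fat diet and 8.30, 8.93, 8.81 and 8.93 on the high fat diet. The genotypes overlapped on both diets, and the labels do not say whether the probe set lies in the deleted part, so that it checks nothing about them. The difference between the 2 effects passed the threshold for 1569 genes (13.0%), and for 1053 of the 4304 wild-type calls (24.5%). The effect was larger in wild-type fat, or absent or opposite in knockout fat, for 953 of these and smaller for the other 100. These genes were chosen by their wild-type call, and the difference reuses the wild-type effect. The 24.5% and this split therefore lean to wild type by selection. Of the wild-type calls 1731 (40.2%) were called in the same direction in knockout fat, which is 49.1% of the 3523 knockout calls. In the lists this difference was called for 11 of 22 collagen chains and 13 of 28 prostaglandin and leukotriene genes, but by limma for 0 of 20 genes of mitochondrial fatty acid oxidation and 0 of 38 of the respiratory chain, of which 1 and 2 had an unadjusted p under 0.05. Among wild-type calls, the smallest p of this difference in each direction was that of Mest and of Drd1. Their diet effects were 3.35 and -3.39 in wild-type fat, and -0.09 and -0.06 in knockout fat. The difference between the genotypes was 3.45 (SE 0.24, adjusted p = 1.57e-06) for Mest. It was -3.33 (SE 0.28, adjusted p = 7.34e-06) for Drd1. Sfrp5, Ptchd4, Klf14 and Abat rose by 5.01, 4.97, 3.91 and 2.18 in wild-type fat, against 0.82, 0.33, -0.56 and -0.83 in knockout fat. Acot3, Npc1, Nr4a3 and Gucd1, a guanylyl cyclase domain gene, changed by -5.39, -1.80, -3.31 and -1.98 in wild-type fat, against -1.08, 0.39, -0.55 and -0.17 in knockout fat. The wild-type mice carried no Cre transgene, so that the deletion and the transgene cannot be told apart in this difference.

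**Figure D5:**
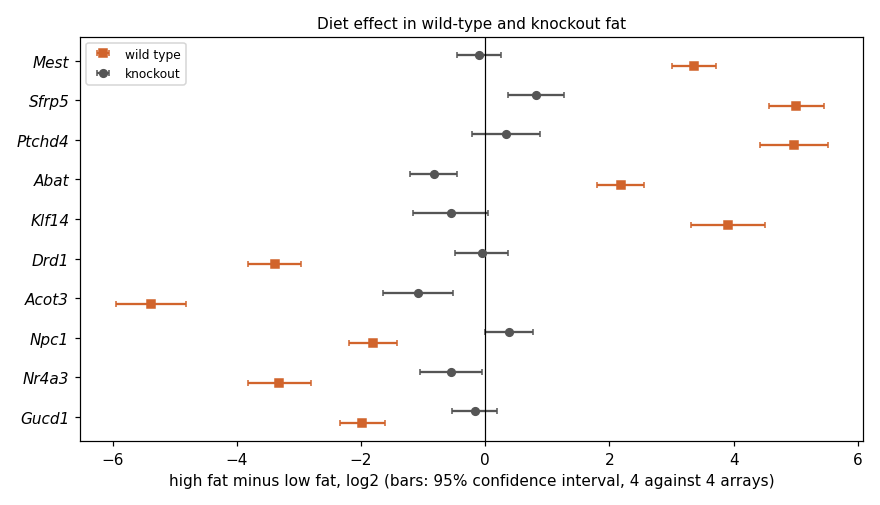
Change with the high fat diet (log2, high minus low fat, 4 against 4 arrays) in wild-type fat (squares) and knockout fat (circles). The genes are the 5 wild-type calls with the smallest p of the difference in each direction. Bars are 95% confidence intervals. For all 10 genes the interval in wild-type fat does not touch that in knockout fat, which their choice by this p favours.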

How the data were processed

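RNA of white adipose tissue was measured on 16 Affymetrix arrays, 4 in each of 4 groups. Per the submitters' processing notes, which list R 2.11.1 and GCRMA 2.20.0, the authors deposited log2 GCRMA expression values. That method corrects for background binding and quantile normalizes, so that a change shared by all genes would be removed. Of 45037 probe sets 34945 carried a single symbol, and for each of 18193 genes the probe set with the highest mean over the 16 arrays was kept. A gene was tested if 4 arrays or more reached 4. A mean for each of the 4 groups was fitted over all 16 arrays with limma 3.58.1 in R 4.3.3 (12 residual degrees of freedom, lmFit and eBayes), with Benjamini-Hochberg adjustment and a threshold of 0.05. No 2 arrays were identical, and the fit was tested on simulated data. The members and the 58 gene lists were chosen with earlier results of these data known. Of 1569 list entries 1424 matched by symbol and 7 by an older symbol, and 138 are not analysed here. Named genes are the 12 largest changes each way without overlap, and up to 4 members a list each way with the smallest p and its defining members. The 5 wild-type calls with the smallest p of the genotype difference each way were added. So were the 6 most precise changes each way and 6 flattest bright genes, and not all are printed. Cdk1, Tef and Ttr fall outside this rule and were chosen after their values were seen. The motifs searched were the E-box CACGTG, the D-box TTATGTAA and its form TTACGTAA, the half-site AGGTCA, the cyclic AMP element TGACGTCA, the homology region core TTTGAA, the CCAAT box and the heptamer CTAACGG, and by name DR1 (a repeat of the half-site, which it overlaps), a TTTC repeat, the CArG box, the kappaB site and the E2F site. Alternatives changed the filter, scaling, variance model, probe sets and arrays used.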

Additional observations from a re-analysis of the deposited data

Results flagged for a closer look

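Arrays that stood apart from the other 3 of their group by Dixon's criterion were looked for in both wild-type groups for every gene named. Chance gives about 1 in 20 groups, and 29 of 494 (5.87%) were found. On the low fat diet, replicate 1 was above the others for Itgax (5.25), Mcm7 (9.78), St3gal6 (11.43) and Tph2 (8.19), and below them for Cd163 (11.31) and Slc2a3 (8.71). Low fat replicate 2 was above for Cdkl4 (4.37) and Nmnat3 (9.32), and below for Cdc6 (4.13), Gpam (12.58) and Insr (10.99). Low fat replicate 3 was below for Aplnr (9.48) and Dpp4 (11.09), and replicate 4 for Ucp1 (7.80). On the high fat diet, replicate 1 was above for Chac1 (8.88) and Ptgfr (6.02), and below for Cxcl12 (11.39), Fzd5 (7.08), Lpl (13.10) and Sfrp5 (11.68). High fat replicate 2 was above for Cdkn2a (2.77) and Tnf (3.01), both near the low end of the scale, and below for Bcl6 (10.92) and Krt14 (2.50). Replicate 3 was above for Pnpla3 (8.20) and below for Slc2a3 (6.63). Replicate 4 was above for Epcam (6.75) and Upk2 (10.64), and below for Uqcrfs1 (11.19).

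The diet effect differed between wild-type and knockout fat for 1569 genes, by limma's test of the difference itself, and 10 of them are given here. These 10 were chosen among wild-type calls by the smallest p of that difference in each direction. On the log2 scale, wild type minus knockout, it was 3.45 (SE 0.24, adjusted p = 1.57e-06) for Mest, 4.19 (SE 0.30, adjusted p = 1.57e-06) for Sfrp5 and 4.64 (SE 0.36, adjusted p = 3.86e-06) for Ptchd4. It was 3.01 (SE 0.25, adjusted p = 7.34e-06) for Abat and 4.46 (SE 0.40, adjusted p = 1.1e-05) for Klf14. It was -3.33 (SE 0.28, adjusted p = 7.34e-06) for Drd1, -4.30 (SE 0.38, adjusted p = 9.03e-06) for Acot3 and -2.19 (SE 0.26, adjusted p = 0.000133) for Npc1. For Nr4a3 it was -2.76 (SE 0.34, adjusted p = 0.000168) and for Gucd1 -1.81 (SE 0.24, adjusted p = 0.000318). In both directions these genes changed more with diet in wild-type fat, which their choice among wild-type calls favours.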

How the results depend on the processing

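With each change required to exceed 1.5-fold by limma's treat test, 728 genes were called (499 up, 229 down) and the difference between genotypes for 144. At an adjusted p under 0.01 the count was 2733, with 1075 down. Without the 5 arrays with muscle transcripts it was 2567, with 917 down, and the difference between genotypes was called for 424; fewer arrays are fitted there. With array weights that difference was called for 2481 genes, and the cause was not tested. Without any 1 wild-type array the counts were 3581 to 4735 for the diet effect, 2085 to 2491 for rises, 1403 to 2244 for falls and 1107 to 2382 for the difference, the last being highest without low fat replicate 2. The other settings gave diet counts of 3334 (wild-type arrays alone) to 4753 (probe sets averaged). Wild-type samples with the same replicate number shared little over all genes tested. Correlations of their deviations from the group means were -0.02, -0.03, 0.05 and 0.09. The skeletal muscle list was lower in replicates 1 and 2 than in 3 and 4 on both diets, and a shared origin was not tested. A replicate block gave 4188 calls and 1390 for the difference. No named gene that was called changed sign in the 22 settings, and 181 of the 203 kept their call in every setting other than the 1.5-fold test, under which 118 did. Centring lowered all changes by 0.09 and ended 6 of these calls. Of 110 called named genes with several probe sets, 83 had another that was called in the same direction and 0 had one called in the opposite direction by limma. Signal near the low end of the scale limits the size of changes such as those of Acot3, Ptgds and Ptchd4.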
